A study of Homo sapiens with 5 samples.

Results

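Metallothioneins are small, cysteine-rich proteins that bind zinc and copper, and 7 of their genes, MT1E, MT1F, MT1G, MT1M, MT1X, MT2A and MT3, are described here in grafted human brain organoids. The genes were chosen because earlier values from these same libraries showed high levels in human astrocyte-like cells, so differences in their human levels are given as a description. No p-value is given for them, and where a fit over all genes called a member, nothing is read from the call or from how often it recurred. They are 7 of the 32732 human genes that the 5 libraries have in common. The organoids came from H9, a human embryonic stem cell line labelled wild type, in a derivative that carries a ChR2-EYFP transgene at the AAVS locus in every group, D0 included. The D0 library held organoids at day 42 of culture, before transplantation. The other 4 libraries held organoids of that age grafted into the prefrontal cortex (PFC) or the hippocampus (HIP) of immunodeficient SCID mice and taken at 2 or 4 months post transplantation (MPT), giving HIP_2MPT, PFC_2MPT, HIP_4MPT and PFC_4MPT. By the methods, mice were only weeks old at grafting, host brains outnumbered the libraries, and tissue was dissected by its EYFP fluorescence, so libraries pooled animals and still held mouse cells. Every group is 1 library, so intervals below cover counting error only, and differences between animals cannot be told apart from differences between groups.

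As background, metallothioneins buffer free zinc and copper and take up reactive oxygen species. Transcription of MT1 and MT2 genes rises when zinc-bound MTF1 occupies metal response elements in their promoters, and glucocorticoids also induce them. In the brain MT1 and MT2 are known mainly from astrocytes, while MT3 was first described as a growth inhibitory factor of the nervous system and is not induced by metals in the same way. All 7 genes lie within 1 cluster on chromosome 16 in GRCh38. MT3 is the first of the 7 at 56589074-56591088, followed by MT2A at 56608584-56609497 and MT1E at 56625475-56627112. MT4, another gene of the family, lies before them at 56565073-56568957. MT1M lies at 56632659-56633981, MT1F at 56657731-56660698 and MT1X at 56682470-56684196. MT1G, at 56666730-56668065, is the only member on the minus strand.

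The promoters of MT2A and MT1X are shown because the promoter set at hand held these members alone. MT1X had the highest level of the MT1 subtypes in 3 of the 5 libraries. Both sequences are the 250 bases before the transcription start on the plus strand of GRCh38.p14 from RefSeq, MT2A at chr16:56608334-56608583 and MT1X at chr16:56682220-56682469. Capitals mark TGCACNC or TGCGCNC on either strand, the letters of the metal response element core, and no marked copy overlaps another.
MT2A: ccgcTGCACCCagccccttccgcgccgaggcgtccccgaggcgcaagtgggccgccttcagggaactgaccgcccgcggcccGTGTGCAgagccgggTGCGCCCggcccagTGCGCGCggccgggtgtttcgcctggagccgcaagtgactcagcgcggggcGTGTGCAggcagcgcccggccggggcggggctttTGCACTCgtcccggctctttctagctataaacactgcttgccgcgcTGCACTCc
MT1X: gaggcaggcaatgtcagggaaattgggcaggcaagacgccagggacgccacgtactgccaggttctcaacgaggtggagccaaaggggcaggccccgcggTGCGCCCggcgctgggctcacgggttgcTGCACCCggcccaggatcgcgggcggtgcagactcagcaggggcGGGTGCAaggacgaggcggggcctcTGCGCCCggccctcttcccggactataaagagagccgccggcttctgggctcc
MT2A held 7 copies and MT1X held 4. Among 35116 promoter windows of the same length, 24.8% held at least 1 copy, 0.370% at least 4 and 0.0313% at least 7. The copies are matches of letters and say nothing about occupancy. Promoters of MT1E, MT1F, MT1G, MT1M and MT3 were not analysed here.

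Of the libraries, D0 was the deepest, with a median of 9847 UMIs (unique molecules counted) per human cell and 4885 cells. The 4 graft libraries held 5952 to 8363 human cells at a median of 1253 to 2759 UMIs. PFC_4MPT stood apart from the others: its median mitochondrial share was 7.31%, against 2.35% to 3.77% elsewhere, and 17.0% of its barcodes mixed human and mouse UMIs, against 1.08% to 6.36%. It also held 957 of the cells in a low-UMI cluster led by MTRNR2L genes that was left unnamed. Human libraries shared 6 to 20 barcodes in pairs. In the human cells of the grafts, 1.07% to 6.54% of UMIs were of mouse genes, the highest in PFC_4MPT, and mouse Mt1, which human cells lack, had a UMI in 7.66% to 28.6% of them. The part of these differences in the values below was not tested, except where a value without them is given.

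Summed over the 7 genes, metallothionein transcripts were lowest in D0 and highest in PFC_4MPT. Levels are CPM, UMIs scaled to the total over the genes that the libraries have in common, with exact Poisson 95% intervals. The summed transcripts made up 56.0 (54.1 to 58.0) CPM in D0, 159.3 (152.0 to 166.9) in HIP_2MPT and 369.2 (359.5 to 379.1) in PFC_2MPT. At 4 months they reached 714.9 (703.6 to 726.4) in HIP_4MPT and 1339 (1321 to 1356) in PFC_4MPT. None of these 5 intervals overlapped. Since each UMI counts the 3' end of 1 transcript, CPM needs no correction for gene length. A sum over all human cells mixes how many cells of a class there are with how much each holds, so the levels within cell classes follow. The other genes of the family were nearly silent: MT1A had 1 to 5 UMIs per library, MT1H 0 to 4, MT4 0 to 6, and MT1B and MT1HL1 none.

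**Figure D1:**
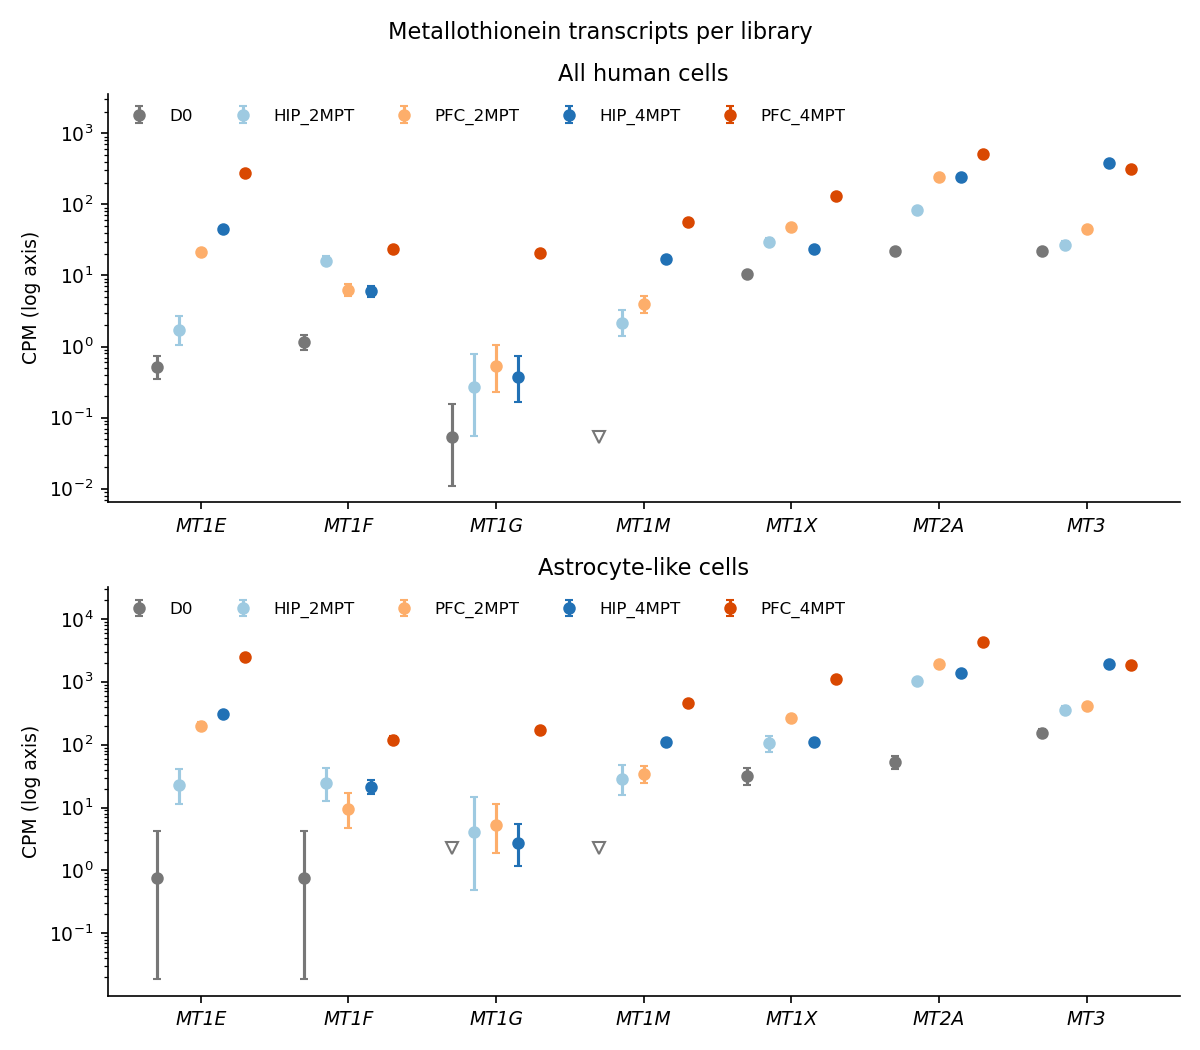
CPM of each of the 7 genes (log axis) in the 5 libraries, in all human cells and in astrocyte-like cells. Points are levels with exact Poisson 95% intervals, and open triangles mark a count of 0 drawn at the level of 3 counts. MT2A stood highest in HIP_2MPT and PFC_2MPT, MT3 stood above MT2A in HIP_4MPT, and MT1E and MT1G were highest in PFC_4MPT.

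MT2A, the ubiquitous metal-inducible member, had the highest level of the family in 4 of the 5 libraries. In D0 that lead was within counting error, at 20.96 to 23.45 CPM against 20.58 to 23.04 for MT3. Of the MT2A UMIs in D0, 498 lay in choroid plexus-like cells, whose level rested largely on a single cell, as given below. Its level over all human cells was 22.2 CPM in D0 (1239 UMIs), 82.4 in HIP_2MPT and 244.4 (236.5 to 252.4) in PFC_2MPT, then 244.8 (238.2 to 251.5) in HIP_4MPT and 518.6 in PFC_4MPT. The intervals of PFC_2MPT and HIP_4MPT overlapped, and those of the other libraries did not. Within astrocyte-like cells MT2A went from 52.6 CPM in D0 to 1013 in HIP_2MPT and 1912 in PFC_2MPT, then 1378 in HIP_4MPT and 4209 in PFC_4MPT. In these cells PFC_2MPT stood above HIP_4MPT, so the order over all human cells did not carry over to the class.

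MT1X and MT1F, a pair of MT1 subtypes, were already detected in D0. MT1X measured 10.4 CPM in D0, 29.7 in HIP_2MPT and 47.9 in PFC_2MPT, then 23.2 in HIP_4MPT and 131.8 in PFC_4MPT, and in astrocyte-like cells 31.5, 104.4, 267.2, 111.8 and 1106 in the same order. HIP_4MPT was thus below both libraries of 2 months over all human cells. MT1F had yet another order, with 1.15, 16.2, 6.29, 6.04 and 23.3 CPM in the same order of libraries. Of its 179 UMIs in HIP_2MPT, 140 lay in neuron-like cells, where its level was 16.5 CPM, against 2.46 in D0 and 5.58 in PFC_2MPT, then 4.28 in HIP_4MPT and 12.3 in PFC_4MPT. Neuron-like cells held 76.8% of all UMIs of HIP_2MPT, so that count of 140 was near an even spread over cells.

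MT1E, MT1M and MT1G were close to absent in D0. MT1E had 29 UMIs there (0.519 CPM), in 0.102% of cells. Of these UMIs 26 lay in choroid plexus-like cells, but in 0.513% of that class, so very few cells carried them. MT1E then measured 1.72 CPM in HIP_2MPT and 21.2 in PFC_2MPT, then 45.6 in HIP_4MPT and 276.8 in PFC_4MPT. MT1M had no UMI in D0, which allows up to 0.0537 CPM, and measured 2.17, 3.95, 17.0 and 55.8 CPM in the 4 graft libraries in that order. Both genes therefore ordered the 5 libraries alike. MT1G had 3 UMIs in each of D0 and HIP_2MPT and 8 in each of PFC_2MPT and HIP_4MPT, against 347 in PFC_4MPT (20.8 CPM, 18.7 to 23.1). Part of its transcript end is shared exactly with relatives. Of the 50-base windows in the last 400 bases, 20.2% for MT1G and 16.8% for MT1X occur exactly in another gene of the family. The share was 0.855% for MT1E and none for MT3.

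MT3, the brain-enriched member, was higher in both libraries of 4 months than in the other 3. Over all human cells it measured 21.8 CPM (20.6 to 23.0) in D0, 26.8 (23.9 to 30.1) in HIP_2MPT and 44.9 in PFC_2MPT, then 377.9 (369.7 to 386.3) in HIP_4MPT and 311.5 (303.1 to 320.1) in PFC_4MPT. It was the only member higher in HIP_4MPT than in PFC_4MPT. In astrocyte-like cells it measured 152.4 CPM in D0, 352.1 in HIP_2MPT and 415.1 in PFC_2MPT, then 1883 in HIP_4MPT and 1868 in PFC_4MPT. The last pair did not differ beyond counting error, with a ratio of PFC_4MPT to HIP_4MPT of 0.992 (0.948 to 1.04).

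The makeup of the family changed between libraries. Of all member UMIs, MT2A made up 39.6% in D0, 51.7% in HIP_2MPT and 66.2% in PFC_2MPT, then 34.2% in HIP_4MPT and 38.7% in PFC_4MPT. MT3 made up 38.9%, 16.9%, 12.2%, 52.9% and 23.3% in the same order. It led beyond counting error only in HIP_4MPT, and in D0 its interval overlapped that of MT2A. The share of MT1E was 0.926%, 1.08%, 5.74%, 6.37% and 20.7%.

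Human cells were assigned to classes by markers. Astrocyte-like cells, 2 of 21 clusters, carried most of the family's transcripts in the grafts of 4 months. They were 2.50% of cells and 10.1% of member UMIs in D0, and 4.40% and 42.9% in HIP_2MPT. In PFC_2MPT they were 6.96% of cells and 59.1% of member UMIs, in HIP_4MPT 10.2% and 73.1%, and in PFC_4MPT 6.64% and 73.9%. Clustering used MT2A, MT1E, MT3 and MT1X among its variable genes, so the excess of these genes in this class is no test. GFAP and AQP4 did not bear out the label in D0. The 122 D0 cells in these clusters had 0 UMIs of GFAP, the astrocyte intermediate filament, and 1 of AQP4, the astrocyte water channel. They had 256 of SLC1A3, a glutamate transporter that radial glia also express. In the graft libraries GFAP measured 146.0 to 251.7 CPM in the class. AQP4 measured 29.6 to 47.1 CPM at 2 months and 397.2 to 545.7 CPM at 4 months. SLC1A3, AGT and HOPX were also higher in both grafts of 2 months than in D0, but other markers were not. GJA1 measured 9.76 CPM in D0, 2.05 in HIP_2MPT and 2.61 in PFC_2MPT, then 69.7 in HIP_4MPT and 99.9 in PFC_4MPT. S100B measured 16.5, 14.3, 12.2, 98.4 and 96.8 CPM in the same order. The neuron marker STMN2 was at 947.9 CPM in the class in HIP_2MPT, against 3987 in its other human cells. Summed over the 7 genes, the astrocyte-like level was 238.0 CPM (122 cells) in D0, 1550 (364 cells) in HIP_2MPT and 2841 (414 cells) in PFC_2MPT, then 3818 (705 cells) in HIP_4MPT and 10423 (555 cells) in PFC_4MPT.

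**Figure D2:**
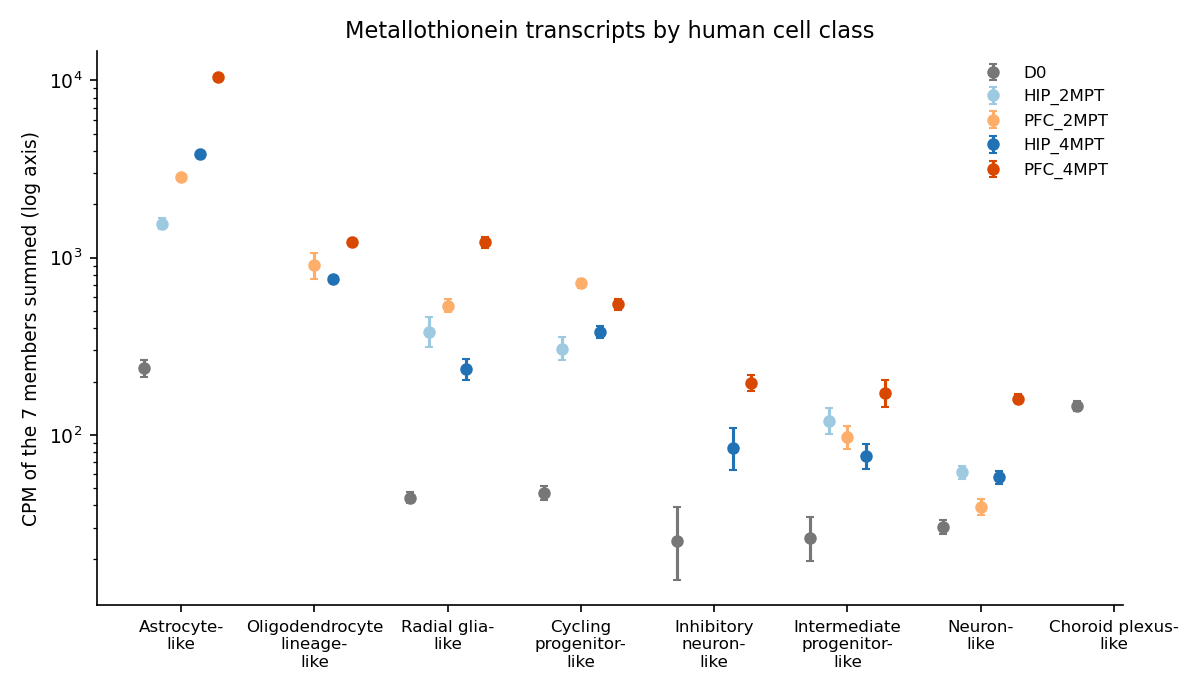
CPM of the 7 genes summed (log axis) for each human cell class with at least 50 cells in a library. Points are libraries with exact Poisson 95% intervals, and astrocyte-like cells lie above every other class in each graft library, at 1550 CPM in HIP_2MPT and 10423 in PFC_4MPT.

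Other glial and progenitor classes came next. Oligodendrocyte lineage-like cells measured 902.9 CPM in PFC_2MPT (50 cells), 755.5 in HIP_4MPT and 1222 in PFC_4MPT for the 7 genes summed. Most of this was MT3 at 4 months, with 600.3 CPM in HIP_4MPT and 787.4 in PFC_4MPT. The class was mainly a cluster with OLIG1 and EGFR among its leading genes, with 50 cells in PFC_2MPT, 834 in HIP_4MPT and 592 in PFC_4MPT. That cluster measured 702.7 CPM in HIP_4MPT and 1184 in PFC_4MPT. A cluster with PDGFRA and MBP among its leading genes measured 1513 CPM (64 cells) and 1455 (104 cells) in the same libraries. Radial glia-like cells, the neural stem cells of the organoid, measured 44.3 CPM in D0, 381.8 in HIP_2MPT and 536.2 in PFC_2MPT, then 234.4 in HIP_4MPT and 1217 in PFC_4MPT. Cycling progenitor-like cells measured 46.9, 306.6, 717.3, 379.5 and 545.7 CPM in the same order. In D0 the highest level outside the astrocyte-like clusters was in choroid plexus-like cells, the class that makes cerebrospinal fluid. Its 390 cells measured 145.7 CPM (136.6 to 155.2) and held 30.8% of the library's member UMIs, with MT2A at 75.3 CPM. The grafts held at most 2 such cells each. With cells thinned to equal depth, 4.36% of the D0 choroid plexus-like cells had a member UMI. The share was 4.81% and 6.91% in the radial glia-like clusters and 3.98% and 5.82% in the cycling progenitor-like clusters. The thinned class held 73 member UMIs, and a single thinned D0 cell held 55, which no other D0 cluster could hold in a cell. The class level thus rested largely on a single cell, and its interval, which takes UMIs as independent, is too narrow.

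Neuron-like cells, the most numerous class in the grafts, had the lowest or nearly the lowest levels. Their sum measured 30.2 CPM in D0, 61.5 in HIP_2MPT and 39.1 in PFC_2MPT, then 57.9 in HIP_4MPT and 160.0 in PFC_4MPT. These levels cannot be told apart from RNA of other cells in the droplets for MT2A and MT3 at 4 months. In HIP_4MPT 3.77% (3.18% to 4.43%) of neuron-like cells had a UMI of MT2A and 6.17% (5.42% to 6.99%) of MT3 (median 2473 UMIs per cell), against 3.62% (2.86% to 4.52%) and 8.16% (7.02% to 9.42%) of mouse host cells (median 2902 mouse UMIs), which lack the human genes. In PFC_4MPT the neuron-like shares were 8.73% (7.89% to 9.64%) for MT2A, 6.79% (6.04% to 7.60%) for MT3 and 4.11% (3.53% to 4.76%) for MT1E, against 7.65% (6.21% to 9.30%), 5.74% (4.49% to 7.21%) and 2.50% (1.69% to 3.54%) of host cells. With each cell thinned to 1000 UMIs, the neuron-like share with MT2A was 1.88% in HIP_4MPT and 4.79% in PFC_4MPT. Host shares were not thinned, so depth was not matched. The neuron-like share of MT3 lay below that of host cells in HIP_4MPT, the other intervals of MT2A and MT3 overlapped those of host cells, and for MT1E in PFC_4MPT the intervals met at their edges. In astrocyte-like cells the MT2A shares were 80.1% and 84.7%, far above both.

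The pair of astrocyte-like clusters differed in which member led. The larger cluster held all 122 such cells of D0, nearly all of those at 2 months (413 of 414 in PFC_2MPT), and 527 and 419 cells in HIP_4MPT and PFC_4MPT. The smaller cluster, led by APOE, SPARCL1 and CST3, held 178 and 136 cells at 4 months and no more than 10 in any earlier library. MT3 measured 4171 CPM in the smaller cluster against 1211 in the larger in HIP_4MPT, and 4381 against 1049 in PFC_4MPT. MT1E went the other way, with 205.3 CPM in the smaller cluster against 341.6 in the larger in HIP_4MPT, and 1014 against 2965 in PFC_4MPT. The clusters were formed with both genes, so these gaps are a description. Within the larger cluster alone, MT3 was 300.7 CPM in HIP_2MPT and 412.3 in PFC_2MPT, so the gap to the later stage was also present without the smaller cluster, at 4.03-fold (3.40 to 4.80) in HIP and 2.54-fold (2.29 to 2.83) in PFC.

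Detection of several members in the same astrocyte-like cell was more frequent at later stages. With each cell thinned to 1000 UMIs, none of 111 D0 cells in the class had at least 3 of the 7 genes, which allows a share of up to 2.70%, against 4.23% in HIP_2MPT and 8.59% in PFC_2MPT, then 21.3% in HIP_4MPT and 41.8% in PFC_4MPT. Cells with none of the 7 made up 84.7%, 33.1%, 27.5%, 18.2% and 10.6% in the same order. The load was uneven among cells. The tenth of cells with the most member UMIs held 33.3% of them in HIP_2MPT and 41.7% in PFC_2MPT, then 32.5% in HIP_4MPT and 42.9% in PFC_4MPT, and a single thinned cell of PFC_4MPT held 137 member UMIs. MT1G was the extreme case: its 347 UMIs in PFC_4MPT came from 97 cells, 1 of which held 56. Of those 97 cells 62.9% were astrocyte-like and 63.9% also had MT1E, which was found in 7.68% of the other cells of that library.

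**Figure D3:**
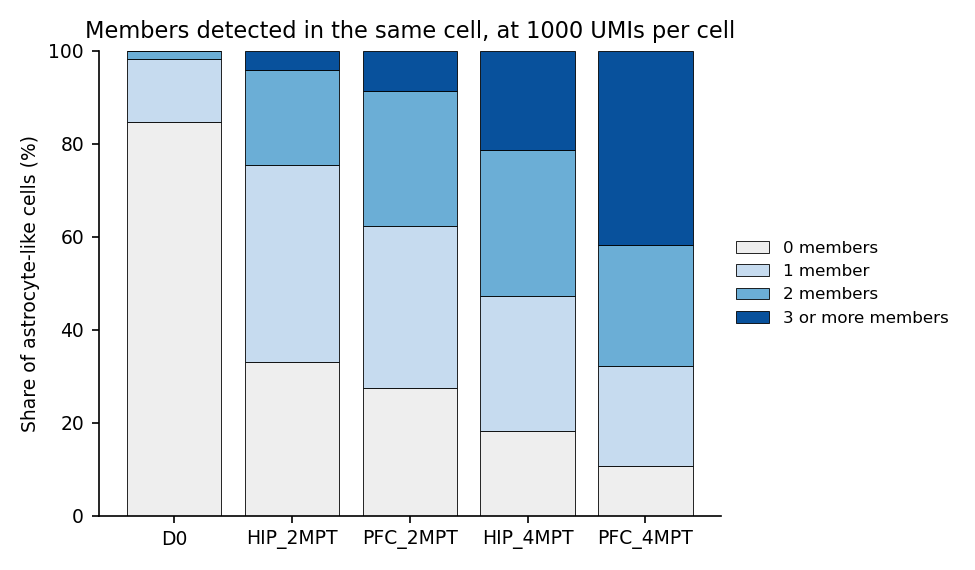
Share of astrocyte-like cells (%) with 0, 1, 2 or at least 3 of the 7 genes detected in each library, after thinning every cell to 1000 UMIs. Cells with at least 3 members made up 4.23% in HIP_2MPT and 41.8% in PFC_4MPT.

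The first comparison asks how the family changed from organoids in culture to grafts. Against D0, the summed level over all human cells was 2.84-fold (2.68 to 3.01) in HIP_2MPT and 6.59-fold (6.30 to 6.89) in PFC_2MPT, then 12.8-fold (12.3 to 13.3) in HIP_4MPT and 23.9-fold (23.0 to 24.8) in PFC_4MPT. Of the member UMIs in D0, 30.8% lay in choroid plexus-like cells, whose level rested largely on a single cell, so these intervals are too narrow. MT1E in PFC_4MPT stood at 533.3-fold (370.9 to 797.3) of D0. Its 29 UMIs in D0 came from 0.102% of cells, so this interval, which takes UMIs as independent, is too narrow. MT1M had no UMI in D0, so its graft levels were set against 3 UMIs over the D0 library. They were 40.4-fold of that level in HIP_2MPT and 73.5-fold in PFC_2MPT, then 315.7-fold in HIP_4MPT and 1040-fold in PFC_4MPT. These values leave out counting error in the grafts, so they are not lower bounds. MT3 moved least at 2 months, at 1.23-fold (1.08 to 1.40) in HIP_2MPT and 2.06-fold (1.87 to 2.27) in PFC_2MPT. In a fit over all genes that took the graft sites of a stage as replicates (edgeR quasi-likelihood test, Benjamini-Hochberg adjusted p under 0.05), 4 of the 7 members, MT1E, MT1F, MT1M and MT2A, were called higher at 2 months. From 2 to 6 members were called under the 7 alternatives: MT2A and MT1E lost their calls with DESeq2, and MT1E also without PFC_4MPT. For 2 months against D0, 48.3% of the genes tested were called and 27.2% were called higher. At 4 months all 7 were called higher, beside 50.1% of genes called and 28.7% called higher. The members were chosen on these data, so nothing is read from these counts. D0 was a single library, assumed to vary like the grafts. It was dissociated with TrypLE rather than Trypsin-EDTA, and counted with Cell Ranger 3.1.0 rather than 5.0.0. Culture, age, enzyme, counting software and library therefore cannot be told apart. Without PFC_4MPT, 4 of 6 members were called at 4 months: MT1F and MT1X lost their calls and MT1G could not be tested.

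The second comparison is between 4 and 2 months. The sum over all human cells was 4.49-fold (4.27 to 4.72) in HIP grafts and 3.63-fold (3.52 to 3.74) in PFC grafts. Within astrocyte-like cells it was 2.46-fold (2.29 to 2.66) and 3.67-fold (3.53 to 3.81). Not all classes rose. In HIP the sum was above 1 in 2 of 5 classes, with 2 intervals below 1, and ran from 0.614 to 2.46. In PFC it was above 1 in 5 of 6 classes, with 1 interval below 1, and ran from 0.761 to 4.095. MT1E, MT1M, MT2A and MT3 were higher at 4 months at both sites over all human cells. MT2A was above 1 in 2 of 5 classes in HIP and 4 of 6 in PFC. MT1E was 26.5-fold (16.9 to 44.3) in HIP and 13.1-fold (11.7 to 14.7) in PFC, and in astrocyte-like cells 13.8-fold and 12.6-fold. MT1M was 7.82-fold and 14.2-fold over all human cells. MT3 was 14.1-fold (12.5 to 15.9) in HIP and 6.93-fold (6.40 to 7.53) in PFC, and in astrocyte-like cells 5.35-fold (4.59 to 6.26) and 4.50-fold (4.08 to 4.97). The class held different clusters at the 2 stages, and in its larger cluster alone, a setting chosen after seeing the data, the MT3 value in PFC was 2.54-fold. MT1G was 38.9-fold (19.5 to 90.9) in PFC, with 8 UMIs at 2 months, and had too few UMIs in HIP for a difference to show, at 1.39-fold (0.334 to 8.16). MT1F and MT1X parted by site over all human cells. MT1F was 0.374-fold (0.296 to 0.472) in HIP and 3.71-fold (2.95 to 4.69) in PFC. MT1X was 0.781-fold (0.678 to 0.901) in HIP and 2.75-fold (2.53 to 2.996) in PFC. In the larger astrocyte-like cluster alone, no fall beyond counting error was seen in HIP. There MT1F gave 0.844 (0.442 to 1.745) and MT1X 1.345 (0.980 to 1.885), against 13.85 (7.32 to 29.5) and 4.70 (4.15 to 5.33) in PFC. MT2A was 2.97-fold in HIP and 2.12-fold in PFC over all human cells. In astrocyte-like cells it was lower than that in HIP, at 1.36-fold, and close to it in PFC, at 2.20-fold.

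In the fit of 4 against 2 months over all genes, 2 of 7 members were called higher, MT3 with a log2 fold change of 3.31 ± 0.30 (SE, 2 libraries a stage) and MT1M with 3.62 ± 0.56. Of all genes tested, 2.4% were called and 1.85% called higher. In astrocyte-like cells the same pair was called, MT3 at 2.33 ± 0.24 and MT1M at 3.20 ± 0.58, beside 2.62% of genes called and 1.91% called higher. The count of members called over all human cells ranged from 1, when PFC_4MPT was left out, to 6, when PFC_2MPT was left out or no filter on low counts was used. Leaving out PFC_4MPT ended the call of MT1M in all human cells, and DESeq2 ended it in astrocyte-like cells. As the genes were chosen on these libraries, these calls are no support.

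The third comparison is between graft sites. At 4 months the PFC graft exceeded the HIP graft in 6 of the 7 members over all human cells, and MT3 was the exception there. Over all human cells the ratio of PFC_4MPT to HIP_4MPT was 1.87 (1.83 to 1.91) for the sum, 6.08 (5.67 to 6.52) for MT1E, 5.67 (5.14 to 6.27) for MT1X and 3.85 (3.15 to 4.74) for MT1F. It was 3.29 (2.91 to 3.73) for MT1M, 2.12 (2.05 to 2.19) for MT2A and 0.824 (0.796 to 0.854) for MT3. MT1G, with 8 UMIs in HIP_4MPT, gave 55.1 (27.7 to 128.7). In astrocyte-like cells the gap was wider, with 2.73 (2.67 to 2.80) for the sum, 8.002 (7.44 to 8.61) for MT1E, 9.89 (8.78 to 11.2) for MT1X and 3.06 (2.94 to 3.18) for MT2A. With mitochondrial share held under 0.10 the ratio of the sum over all human cells was 2.04, and with human share over 0.9 it was also 2.04.

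A ratio above 1 at 4 months was also found in classes other than astrocyte-like cells. In each of the 7 classes with enough cells at both sites, the PFC_4MPT level exceeded the HIP_4MPT level for MT1E, MT1F, MT1X, MT2A and the sum, with intervals above 1 in all 7 except for MT1F, where 5 were. The ratio of the sum ran from 1.44 to 5.19 across these classes. MT3, lower in PFC_4MPT over all human cells, had a ratio above 1 in 6 of the 7 classes. Its class ratios ran from 0.992 to 2.22, with 4 intervals above 1 and none below. All classes of a library share its free RNA, so they are not independent. In classes such as neuron-like cells, where the shares with MT2A overlapped those of host cells, the ratios of MT2A, MT3, MT1E and the sum cannot be told apart from a difference in free RNA between the libraries. MT1X had 56 UMIs in 3744 neuron-like cells of HIP_4MPT and 159 in 4111 of PFC_4MPT, against 5 in 2071 host cells and 17 in 1202. MT1F had 41 and 93 UMIs, against 2 and 9 in the same host cells. The part of free RNA in the ratios of MT1X and MT1F was not tested.

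At 2 months the pattern was only partly the same. The ratio of PFC_2MPT to HIP_2MPT over all human cells was 2.32 (2.20 to 2.45) for the sum, 12.4 (7.78 to 20.8) for MT1E and 2.97 (2.76 to 3.19) for MT2A. MT1F was lower in PFC_2MPT, at 0.389 (0.299 to 0.502), and MT3 was higher, at 1.67 (1.46 to 1.93), each opposite to its direction at 4 months. In astrocyte-like cells the sum gave 1.83 (1.69 to 1.99) and MT3 gave 1.18 (0.988 to 1.41). Only 3 of 5 classes had a ratio of the sum above 1. For MT3 it was 2 of 5 classes, with no interval above 1 and 1 below.

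**Figure D4:**
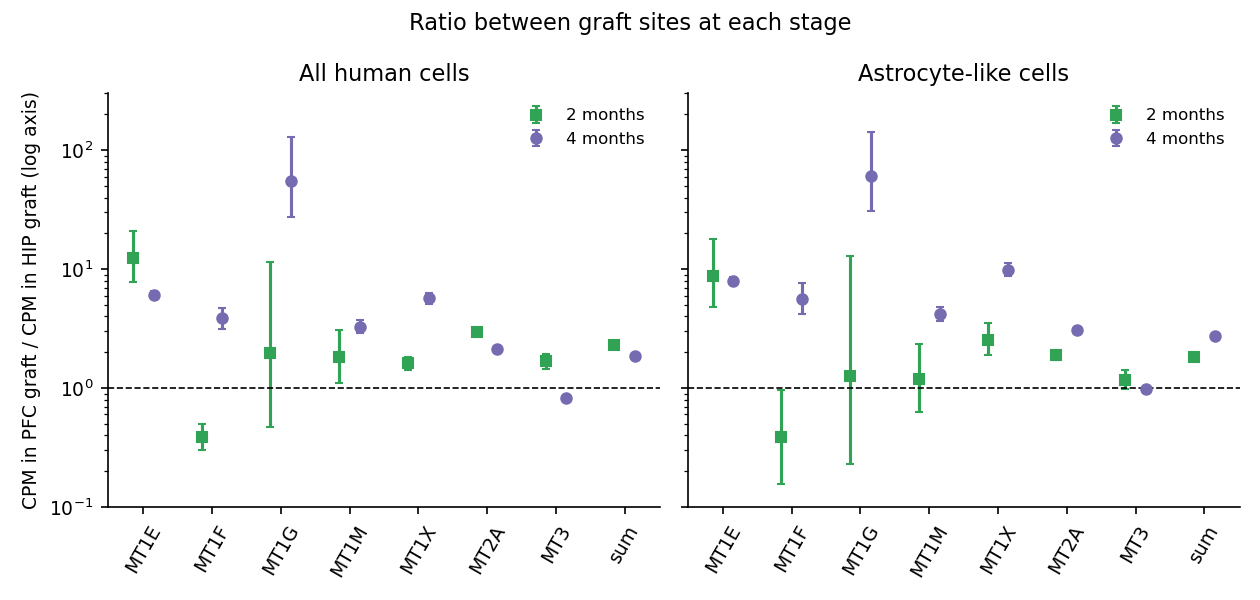
Ratio of CPM in the PFC graft to CPM in the HIP graft (log axis) at 2 and 4 months for each gene and the sum, in all human cells and in astrocyte-like cells, with exact 95% intervals for counting error. The dashed line marks a ratio of 1. MT1E lies above it at both stages, at 12.4 and 6.08 over all human cells, and MT3 in astrocyte-like cells at 4 months lies on it, at 0.992.

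A fit over all genes with stage as a covariate set PFC against HIP, and called 2 of the 6 members tested higher in PFC. These were MT1E, with a log2 fold change of 3.06 ± 0.35 (SE, 2 libraries a site), and MT1X, with 1.65 ± 0.35. MT1G did not pass the filter on low counts. Of all genes tested, 0.0876% were called and 0.0701% called higher. In astrocyte-like cells 4 of 6 were called higher: MT1E at 3.05 ± 0.34, MT1X at 2.44 ± 0.33, MT1M at 1.51 ± 0.35 and MT2A at 1.28 ± 0.29, beside 0.189% of genes called and 0.103% called higher. MT3 was at 0.27 ± 0.32 over all human cells and 0.12 ± 0.29 in astrocyte-like cells, with no call. The calls depended on the setting, and nothing is read from them. Over all human cells MT1E was called in 7 of 8 alternatives and MT1X in 4, which lost its call with DESeq2, with DESeq2 size factors and with cells over 1000 UMIs. In astrocyte-like cells MT1E was called in 10 of 11 alternatives, MT1X in 8, MT1M in 7 and MT2A in 5. DESeq2, or leaving the metallothionein genes out of the variable genes used for clustering, ended all of these but that of MT1E. With stage left out of the fit, no member was called in either.

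The wider pathway was described with 3 lists chosen with these results known. Among 30 zinc and copper handling genes, 3 were called higher and 6 lower at 2 months against D0, with a median log2 fold change of -0.26 against 0.07 over all genes tested, of which 27.2% were called higher and 21.1% lower. At 4 months against D0 they were 5 and 7, with a median of 0.09 against 0.08 over all genes, of which 28.7% were called higher and 21.4% lower. SLC39A4, a zinc importer, was higher at 4 months by a log2 fold change of 5.44 (adjusted p = 0.000509). That change rests on 2 UMIs in D0 (0.0358 CPM), against 1.65 CPM in HIP_4MPT, a ratio of 46.2 (11.9 to 396.2), and 2.70 CPM in PFC_4MPT, a ratio of 75.5 (19.7 to 642.1). SLC39A11 was also higher at 4 months, by 2.14, from 4.26 CPM in D0 to 26.9 in HIP_4MPT and 20.05 in PFC_4MPT. SLC30A1, a zinc exporter that MTF1 also induces, fell by 2.00 (adjusted p = 0.00405), from 14.5 CPM in D0 to 2.93 and 6.06 CPM in HIP_4MPT and PFC_4MPT. MTF1 itself fell by 1.11 (adjusted p = 0.0153), a call lost without HIP_4MPT or without PFC_4MPT. Both falls were over all human cells, and astrocyte-like cells were not fitted against D0. In astrocyte-like cells SLC30A1 measured 12.3 CPM in HIP_2MPT and 12.2 in PFC_2MPT, then 5.52 in HIP_4MPT and 14.55 in PFC_4MPT. MTF1 measured 6.14, 6.09, 8.28 and 5.69 CPM there in the same order. No gene of this list was called between 4 and 2 months or between sites. That held in all human cells (30 and 29 tested) and in astrocyte-like cells (19 tested).

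Among 12 glucocorticoid receptor targets, none was called higher and 6 were called lower at 2 months against D0, with a median of -1.05, and 1 higher and 6 lower at 4 months, with a median of -0.84. Over all genes the shares called were 27.2% higher and 21.1% lower at 2 months, with a median of 0.07, and 28.7% and 21.4% at 4 months, with a median of 0.08. TSC22D3, the glucocorticoid-induced leucine zipper, fell by 3.20 at 2 months (adjusted p = 7.03e-05). NR3C1, the glucocorticoid receptor itself, rose from 2 to 4 months by a log2 fold change of 2.29 ± 0.36 (adjusted p = 0.00791), from 2.62 and 4.28 CPM in HIP_2MPT and PFC_2MPT to 19.5 and 13.6 CPM at 4 months. CDKN1C, a cyclin-dependent kinase inhibitor, rose by 1.79 (adjusted p = 0.00723). Both calls were lost without PFC_4MPT, and that of NR3C1 also without HIP_4MPT. Among 10 NRF2 and oxidative stress genes, 1 was called higher and 5 lower at 2 months against D0, with a median of -0.81, and 2 higher and 4 lower at 4 months, with a median of -0.80, beside the same shares and medians over all genes. HMOX1, heme oxygenase 1, fell by 4.41 at 2 months (adjusted p = 0.00123). SRXN1 rose by 3.11 at 2 months, from 0.215 CPM in D0 to 1.99 in HIP_2MPT and 2.875 in PFC_2MPT. SLC7A11, the cystine importer that supplies cysteine for glutathione, rose in astrocyte-like cells from 2 to 4 months by 3.01 ± 0.49 (adjusted p = 0.00795), from 4.10 and 6.96 CPM to 34.5 in HIP_4MPT and 62.6 in PFC_4MPT. No gene of the latter lists was called between sites.

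Across 32 units of library and cell class, the genes whose log2(CPM + 1) was most like that of the summed members were DIPK1C (Pearson r = 0.921), BCL6 (0.912), CD9 (0.906), DOCK1 (0.904) and SPCS2 (0.902), of 13899 genes. Units of a library share depth and free RNA, so r is a description. With a pseudocount of 10 DIPK1C ranked 15 and SPCS2 ranked 13. Among the members themselves, MT1E and MT1M were most alike (r = 0.8997) and MT1F and MT3 least (r = 0.379).

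Host cells gave the mouse orthologues a separate look, since the genes were chosen on human cells. Mt1, the main mouse metallothionein, measured 1677 CPM of mouse UMIs in HIP_2MPT (916 host cells) and 2515 in PFC_2MPT (772), then 1336 in HIP_4MPT (2071) and 3629 in PFC_4MPT (1202). Mt2 measured 48.9, 102.9, 64.7 and 271.9 CPM, and Mt3 81.5, 443.2, 791.2 and 1318 CPM, in the same order. Mt4 had no UMI. Both PFC libraries were above both HIP libraries for Mt1 and Mt2. For Mt3, PFC was above HIP at each stage over all host cells. At 2 months its ratio of PFC to HIP was 116.9 (53.2 to 320.4) in host cells left unnamed. It was 2.06 (0.742 to 7.95) in microglia-like cells and 1.39 (0.532 to 4.02) in oligodendrocyte-like cells, so no gap beyond counting error was seen there.

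None of the 3 genes passed the test in host cells. PFC against HIP gave log2 fold changes of 0.61 ± 0.51 for Mt1 (edgeR adjusted p = 0.893), 1.19 ± 0.35 for Mt2 (0.292) and 1.17 ± 0.58 for Mt3 (0.682), with 0.593% of 11639 genes called. For 4 against 2 months the values were 0.18 ± 0.51 for Mt1 (adjusted p = 0.910), 0.99 ± 0.35 for Mt2 (0.220) and 2.49 ± 0.59 for Mt3 (0.107), with 0.498% called. At an unadjusted p under 0.05, Mt2 passed in both comparisons and Mt3 passed for stage. Mt3 passed the adjusted threshold for stage with DESeq2 and without a filter on low counts. Leaving out choroid plexus-like host cells brought Mt3 for stage to 1.18 (adjusted p = 0.332) and for site to 2.57 (adjusted p = 0.0880), and microglia-like cells alone gave Mt1 for stage a value of -0.76 (adjusted p = 0.993), both settings chosen after seeing the data. Of the mouse genes of the 3 lists, none was called in either comparison.

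Which host cells were captured differed between libraries. Mouse astrocyte-like cells reached 50 cells only in PFC_4MPT (165 cells, 13.7% of host cells), where Mt1 measured 16397 CPM, Mt2 1931 and Mt3 10132. This rests on the naming of a cluster of 64 cells, 61 of them in PFC_2MPT, that scored highest for astrocyte markers. It was left unnamed because Nrgn and Camk2a, taken as genes of another cell type, were among its leading genes. That rule was set after the leading genes were seen. In the unnamed host cells of PFC_2MPT, Mt3 measured 2568 CPM. Choroid plexus-like cells reached it only in HIP_4MPT (470 cells, 22.7%), where Mt3 measured 1424 CPM and Mt1 254.9. Microglia-like cells, the brain's resident macrophages and the only class besides oligodendrocyte-like cells with 50 cells in all 4 libraries, had Mt1 at 2598 CPM in HIP_2MPT and 2362 in PFC_2MPT, then 1004 in HIP_4MPT and 2078 in PFC_4MPT. Oligodendrocyte-like cells, which make myelin, had Mt1 at 2450, 3023, 5581 and 3140 CPM in the same order. PFC_4MPT against HIP_4MPT thus gave an Mt1 ratio of 2.07 (1.96 to 2.18) in microglia-like cells and 0.563 (0.535 to 0.591) in oligodendrocyte-like cells, on opposite sides of 1. The Mt2 ratio also lay on opposite sides, at 1.915 (1.308 to 2.799) and 0.557 (0.3974 to 0.7705) in the same classes. Mouse transcripts also reached human cells: Mt3 made up 2027 CPM of the mouse UMIs in human cells of PFC_4MPT, against 1318 CPM in its host cells.

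**Figure D5:**
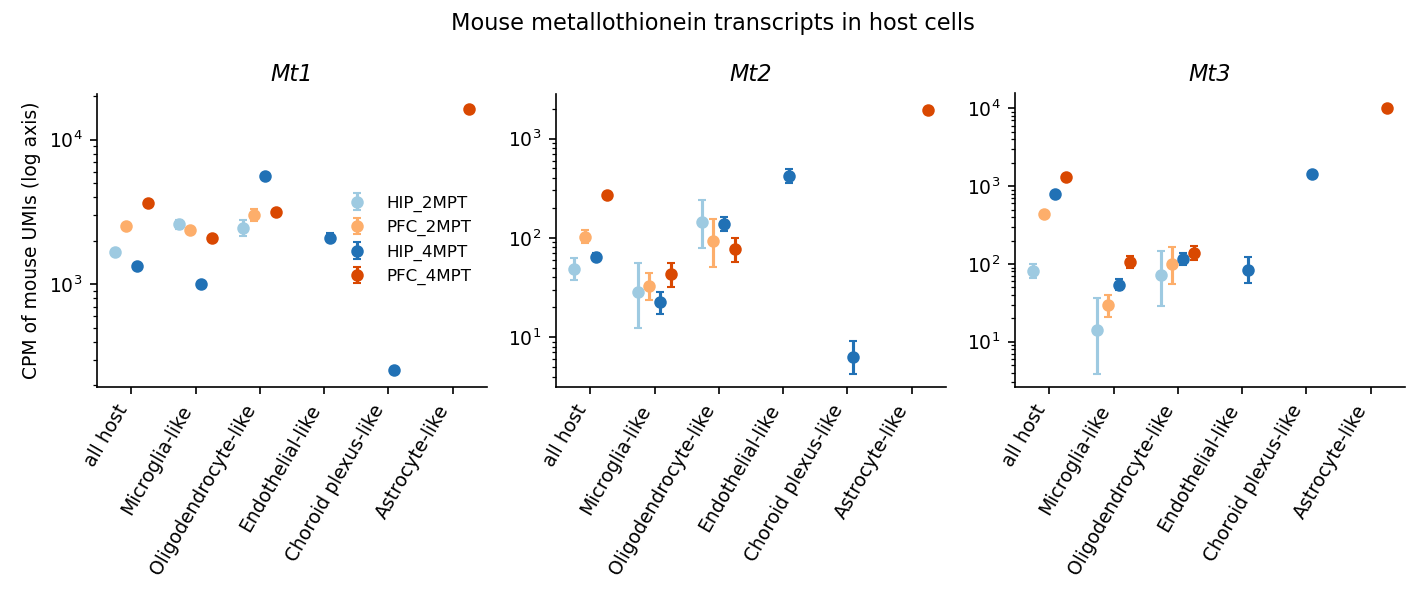
CPM of Mt1, Mt2 and Mt3 among mouse UMIs (log axis) in all host cells and in 5 host classes, by graft library where the class had at least 50 cells, with exact Poisson 95% intervals. Astrocyte-like cells of PFC_4MPT lie highest for all 3 genes, with Mt1 at 16397 CPM.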

How the data were processed

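The data were single-cell RNA sequencing (10x 3' version 3 chemistry) of 5 libraries, 1 per group, grouped by the submitters' labels. The authors deposited UMI counts per gene and barcode, made with Cell Ranger: the file headers name version 3.1.0 for D0 and 5.0.0 for the grafts, while the processing notes name 3.1 with R 4.1.1. Human cells were counted against a human reference (GRCh38), and graft libraries also against a dual human and mouse reference, whose prefixes name mm10 although the methods name another mouse build. Libraries held 11192237 to 55892222 human UMIs. CPM was scaled to the UMIs of the 32732 genes that the libraries have in common. On that scale 3 counts, the most a count of 0 allows, were 0.0537 to 0.271 CPM.

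From these counts, human barcodes needed more than 500 UMIs and 500 genes, log10 genes divided by log10 UMIs above 0.8, less than 0.15 of UMIs from mitochondria and more than 0.8 from human genes. Host cells needed more than 500 mouse UMIs and less than 0.2 from human genes. No doublet caller was run: barcodes that mixed species were removed by the human share, and doublets within a species remained. Cells were normalized and integrated with sctransform 0.4.2 and Seurat 5.3.0 (2500 variable genes, 40 components, resolution 0.8), and host cells with scanpy 1.11.5 (2000 genes, 30 components, resolution 2.0). Clusters were named "X-like" from marker lists, the cluster with low UMIs and no markers among its leading genes stayed unnamed, and classes under 50 cells in a library were left out.

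UMIs were summed per library and class. CPM carried exact Poisson 95% intervals, shares of cells exact Clopper-Pearson intervals, and cells were also thinned to 1000 UMIs with shallower cells left out. All genes were fitted with edgeR 4.0.16 (quasi-likelihood, TMM, R 4.3.3) over libraries, with Benjamini-Hochberg adjustment at 0.05, and DESeq2 1.42.0 as an alternative. Nothing says that PFC and HIP libraries of a stage came from separate organoid batches, so p-values measure the spread between these libraries. The fits were tested on simulated data, but no result of that is given here, so nothing is read from it. The members and the lists were chosen with earlier results of these data known. The genes named were all 7 members, the rest of the family, Mt1 to Mt4, some of the list genes that were called and the 5 genes most like the summed members. The list genes named were not always those with the largest change. Other settings tried were the normalization, filters on low counts and on cells, clustering choices, covariates and leaving out each library.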

Additional observations from a re-analysis of the deposited data

Results flagged for a closer look

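For 8 values, the ratio of the PFC to the HIP graft lay on opposite sides of 1 at 4 and at 2 months, beyond counting error at both stages. They were picked by this rule from all members and mouse genes over all named classes. How often other genes do the same was not counted, so nothing is read from their number. Each ratio rests on 1 library a group, so the difference between stages was not tested. MT1F over all human cells was 3.85 at 4 months and 0.389 at 2 months, and in astrocyte-like cells 5.62 and 0.390. The last of these ratios rests on 11 UMIs in PFC_2MPT and 12 in HIP_2MPT. MT1F in neuron-like cells was 2.87 at 4 months and 0.339 at 2 months. MT1X in neuron-like cells was 3.59 and 0.702. MT3 over all human cells went the other way, with 0.824 at 4 months and 1.67 at 2 months. Within named classes with enough UMIs, no MT3 interval lay below 1 at 4 months or above 1 at 2 months. In intermediate progenitor-like cells MT3 was 2.05 and 0.230. That pair is not read as a difference in these cells, since the share of them with an MT3 UMI was near that of mouse host cells, which lack the gene. It was 0.803% against 0.546% in HIP_2MPT and 0.435% against 0.518% in PFC_2MPT (8 and 3 UMIs in the progenitor-like cells), then 5.85% against 8.16% in HIP_4MPT and 7.16% against 5.74% in PFC_4MPT, with depth not matched. In host cells, Mt1 was 2.07 at 4 months and 0.909 at 2 months in microglia-like cells, and 0.563 and 1.23 in oligodendrocyte-like cells.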

How the results depend on the processing

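The labels give no replicate numbers to pair libraries by. The comparison of graft sites took stage as a covariate, which pairs the sites within a stage, and that of stages took site as a covariate in 1 alternative. With 1 or 2 libraries an arm, calls depended strongly on the setting. The cause was not tested for any of the following changes. For 4 against 2 months over all human cells, 457 genes were called, and 1347 without a filter on low counts, 738 with graft site as a covariate and 32 to 1508 with a library left out (32 without PFC_4MPT, 207 without HIP_4MPT and 1508 without PFC_2MPT). In astrocyte-like cells 305 genes were called, and 758 without the filter, 171 with the metallothionein genes left out of the variable genes, 466 without integration, 586 with site as a covariate and 298 to 683 with a library left out (683 without PFC_2MPT, 539 without PFC_4MPT).

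For PFC against HIP over all human cells, 15 genes were called, and 7 with DESeq2, 3 with DESeq2 size factors, 36 without the filter, 30 with human share over 0.9, 23 with mitochondrial share under 0.10 and 4 with cells over 1000 UMIs. With no stage in the fit edgeR called 0, with 132 genes at an unadjusted p under 0.05. In astrocyte-like cells 22 were called, and 2 with DESeq2, 11 with cells over 1000 UMIs, 10 at resolution 1.6, 2 with the metallothionein genes left out of the variable genes and 0 with no stage in the edgeR fit, with 127 at an unadjusted p under 0.05. Site and host fits could not be fitted with a library left out, since no residual degrees of freedom remained. Counts against D0 stayed within 1.5 times in all 7 alternatives, at 7750 to 10219 for 2 months and 6791 to 10542 for 4 months.

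The ratio of the sum of PFC_4MPT to HIP_4MPT over all human cells was 2.04 with human share over 0.9, 2.04 with mitochondrial share under 0.10, 1.94 with cells over 1000 UMIs and 1.80 after thinning. In astrocyte-like cells it was 2.59 with the metallothionein genes left out of the variable genes and 2.51 after thinning. The ratio of PFC_2MPT to HIP_2MPT over all human cells was 2.09 after thinning, and in astrocyte-like cells 1.70 to 1.88 over 8 alternatives. In host cells, Mt3 for 4 against 2 months was 2.49 with DESeq2 (adjusted p = 0.000838) and 2.56 without the filter (adjusted p = 3.03e-05), and its adjusted p ran up to 0.346. Mt1 for 4 against 2 months was -0.76 in microglia-like cells alone (adjusted p = 0.993), a setting chosen after seeing the data. With a pseudocount of 10, r with the summed members was 0.891 for DIPK1C and 0.9001 for SPCS2.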
